A study of Homo sapiens with 11 samples.

Results

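Long non-coding RNAs (lncRNAs) that are well known in lung cancer were examined on expression arrays of A549 and HCC827 cells, established lines of human lung adenocarcinoma, after stable transfection. The set held 8 genes, MALAT1, NEAT1, H19, MEG3, HOTAIR, PVT1, TUG1 and GAS5, and their probes were found through the RefSeq accession that the array gives for a probe. This named 29 of the 42405 probes for 7 of the 8 genes. MALAT1 had 5 probes, NEAT1 3, H19 2, MEG3 5, HOTAIR 5, PVT1 8 and GAS5 1. No probe was named for TUG1 by this rule, and TUG1 is not described further.

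The cells had received a retroviral vector and G418 selection, and the vector was either empty (mock) or carried the wild-type coding sequence of TRIM58, an E3 ubiquitin ligase of the tripartite motif family, with a FLAG tag (TRIM58-WT). For A549 there were 3 replicates of mock (4 arrays) and 3 of TRIM58-WT, and for HCC827 2 of each. Mock arrays 1-1 and 1-2 of A549 shared 1 control cell and were averaged to 1 replicate. The A549 transfectants were picked as clones, whereas the HCC827 transfectants were not. In A549, a change with the vector and a difference between the clones picked for each group cannot be told apart. Agents that all groups share are the retroviral backbone and the selection. Where no label ties replicates to separate cultures, the p-values below measure the spread between these arrays alone. In bulk cultures, fewer cells that make an RNA and less of it per cell cannot be told apart.

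lncRNAs are transcripts that act without being translated, many of them from within the nucleus. MALAT1 sits in nuclear speckles, where splicing factors gather, and NEAT1 is the scaffold of paraspeckles, neighbouring bodies that retain RNA and RNA-binding proteins. H19 and MEG3 come from imprinted domains and are normally expressed from the maternal allele, HOTAIR is transcribed within the HOXC cluster, PVT1 lies beside MYC, and GAS5 hosts small nucleolar RNAs in its introns. In lung cancer MALAT1, HOTAIR, H19 and PVT1 are usually described as raised, and MEG3 and GAS5 as reduced.

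H19 and MEG3 were the genes with probes called in A549, and both are hosts of microRNAs, so the mature forms inside their RefSeq gene bounds are shown. The sequences are from RefSeq (GRCh38.p14), the capitals mark the seed (bases 2 to 8), and no 2 of the 3 shared a seed. The miR-675 arms lie within H19 on the minus strand, at chr11:1996800-1996822 for the 5p arm and chr11:1996768-1996787 for the 3p arm. miR-770-5p lies within MEG3 on the plus strand, at chr14:100852409-100852431. The arrays measured the host RNAs and not these microRNAs.
hsa-miR-675-5p: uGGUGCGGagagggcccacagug
hsa-miR-675-3p: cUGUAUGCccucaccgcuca
hsa-miR-770-5p: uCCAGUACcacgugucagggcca

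MEG3 is a gene whose promoter is known to be methylated in tumours, and the window around its most upstream RefSeq start is shown, from 250 bases before to 50 bases after it, at chr14:100825858-100826157 on the plus strand (GRCh38.p14). CpG dinucleotides, the letters CG, which read the same on both strands, are in capitals.
MEG3 promoter: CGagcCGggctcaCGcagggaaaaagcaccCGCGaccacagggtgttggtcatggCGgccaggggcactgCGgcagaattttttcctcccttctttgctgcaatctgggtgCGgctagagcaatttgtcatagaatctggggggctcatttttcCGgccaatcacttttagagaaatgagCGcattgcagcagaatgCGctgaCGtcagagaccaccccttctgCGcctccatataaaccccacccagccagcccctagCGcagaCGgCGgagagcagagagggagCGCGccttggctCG

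The window held 19 CpG. The median over 35116 promoter windows of the same length was 14, 57.1% of them held fewer than MEG3, and 96.0% held at least 1. The corresponding window of H19 held 6, that of GAS5 5, and the windows at the 2 starts of MALAT1 37 and 14. These counts describe the sequence only, and methylation of these windows was not analysed here.

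Values are log2 processed signals relative to the 75th percentile of their array, so that a value of 0 is a signal equal to that percentile. Signals of different probes are not comparable with one another. A probe was tested with limma when it was well above background, the scanner software's own flag, on all arrays of 1 or more of the groups in the comparison. It was called at a Benjamini-Hochberg adjusted p under 0.05, over all tested probes, with a change of at least 2-fold.

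3 of the 11 arrays stood apart before any comparison was made. Mock replicate 3 and TRIM58-WT replicates 2 and 3 of A549 had a 75th percentile of signal of 60.3, 62.5 and 56.6, against 90.5 to 103 on the other A549 arrays and 108 to 125 in HCC827. The mean of 7 spike-in control probes, relative to that percentile, was 6.04, 5.98 and 6.43 on these arrays, against 4.99 to 5.18 on the other A549 arrays. All 3 were on slide 2, together with mock array 1-2, which did not share these values (75th percentile 103, spike-in mean 5.18). Both groups of A549 hold such arrays, so the changes of the main A549 lncRNA probes are also given within the arrays of low signal and within the others, a split chosen after seeing the data.

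Further checks concerned the labels. Between TRIM58-WT replicates 2 and 3 of A549, the SD of the difference in signal was 0.21 over the probes above background on both, which is less than the SD of 0.26 between mock arrays 1-1 and 1-2 of 1 control cell. Their labels carry different numbers and they were kept as separate replicates, with the averaged value given where it changed a call. The TRIM58 probe was well above background on 1 of the 11 arrays, mock replicate 3 of A549 (-0.71), and on no array labelled TRIM58-WT. The position of this probe relative to the coding sequence in the vector was not analysed, and directions below compare arrays by label, TRIM58-WT against mock. The epithelial marker KRT19 was well above background on 4 of 4 A549 mock arrays and 0 of 3 A549 TRIM58-WT arrays, and EPCAM on 4 of 4 and 1 of 3. The other 4 epithelial markers, KRT7, KRT8, KRT18 and CDH1, were well above background on all 11 arrays. Their levels were not all alike in the A549 groups. CDH1 measured 2.72, 2.61, 2.82 and 2.35 on the mock arrays and 1.80, -0.54 and -0.40 in TRIM58-WT. KRT8 was called lower in TRIM58-WT (change -1.37, limma adjusted p = 0.026). Of the 6 epithelial markers tested in A549, 3 were called lower and 0 higher, against 3.43% and 3.49% of all tested probes. Of 4 lung lineage markers, NKX2-1 was well above background on every HCC827 array and on no A549 array. NAPSA was so on every HCC827 array, 1 of 4 A549 mock and 1 of 3 A549 TRIM58-WT arrays, and SFTPB on 1 of 2 HCC827 arrays of each group and on no A549 array. SFTPC was so on 1 of 4 A549 mock, 2 of 3 A549 TRIM58-WT, 0 of 2 HCC827 mock and 1 of 2 HCC827 TRIM58-WT arrays. Of 7 mesenchymal markers, COL1A1 was well above background on 0 of 4 A549 mock and 3 of 3 TRIM58-WT arrays, LUM on 3 of 4 and 0 of 3, and the other 5 on none of the 11 arrays. Among 4 blood cell markers CD14 was well above background on 4 of 4 A549 mock and 1 of 3 TRIM58-WT arrays, HBB on 3 of 4 and 0 of 3, PTPRC on 2 of 4 and 2 of 3, and CD3E on none of the 11. HBB measured 0.89, 0.69 and 0.79 on mock arrays 1-1, 1-2 and 2 and -2.87 in mock 3. In HCC827 mock and TRIM58-WT, CD14 was well above background on 2 of 2 and 2 of 2 arrays, PTPRC on 2 of 2 and 1 of 2, and HBB on none. PECAM1, CDH5 and VWF, markers of endothelium, were not well above background on any array. The part of these differences between the A549 groups in the results below was not tested.

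**Figure D1:**
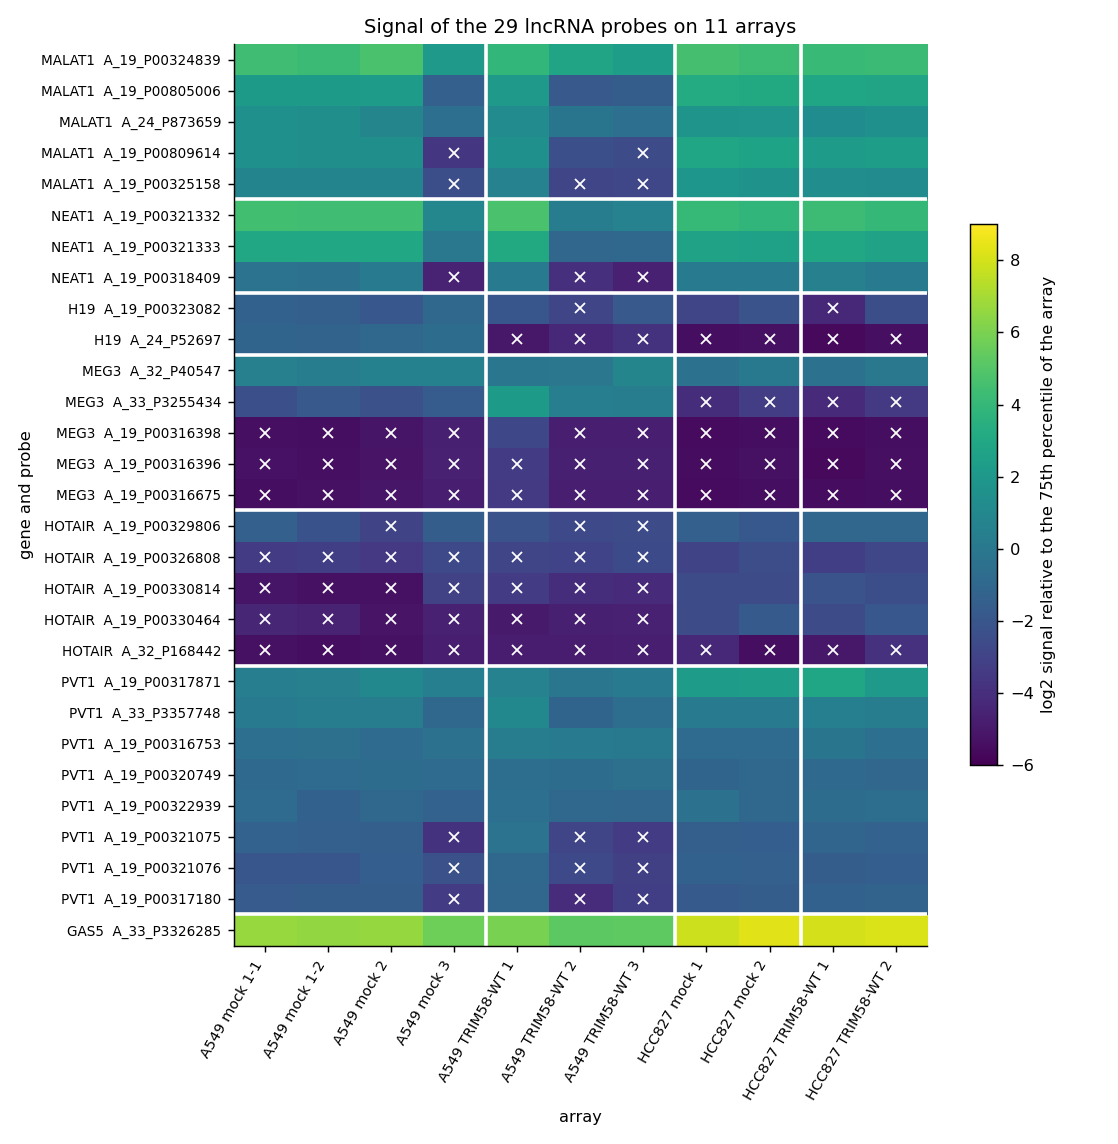
Signal of each of the 29 lncRNA probes (rows, grouped by gene) on each of the 11 arrays (columns, white lines between groups), as log2 relative to the 75th percentile of the array, with a white cross where the probe was not well above background. H19 probe A_24_P52697 is above background on the A549 mock arrays alone, and the MALAT1 and NEAT1 probes are darker on A549 mock 3 and TRIM58-WT 2 and 3.

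In A549, 15 of the 29 probes were tested and 2 were called, a probe of H19 that fell and a probe of MEG3 that rose in TRIM58-WT. Over all 16921 tested probes 6.92% were called, 3.49% higher and 3.43% lower. This balance moved with the scaling, with 285 of 1113 calls higher after scaling to the median of each array and 116 of 343 after spike-in scaling. The unadjusted p was under 0.05 for 3 of the 15 lncRNA probes, against 25.3% of all tested probes. The replicates of the groups did not overlap for 4 of the 15, against 31.0%. With counts this small, the results concern single probes and not the lncRNAs as a group.

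H19, a growth-related transcript that shares enhancers with IGF2, lost its signal on probe A_24_P52697. The signal was -1.19 and -1.24 on mock arrays 1-1 and 1-2, -1.0 in mock 2 and -0.70 in mock 3. It was -5.00, -4.36 and -3.82 in TRIM58-WT replicates 1, 2 and 3, and the probe was not well above background on any of these. The highest TRIM58-WT array lay below the lowest mock array. The fitted change was -3.42 (SE 0.33, 95% confidence interval -4.21 to -2.64, adjusted p = 0.0036). The probe entered the test through the mock arrays alone, so these values rest in part on signals at background. Since the TRIM58-WT arrays hold only a bound, the level was at least 3.15-fold lower in TRIM58-WT, taking on each array the higher of the lowest signal among probes above background and the probe's own signal.

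On both slides and in both classes of signal, this H19 probe was above background on the mock arrays and at background on the TRIM58-WT arrays, so the size of the fall within each cannot be given. With TRIM58-WT 2 and 3 averaged to 1 replicate the probe was still called (adjusted p = 0.016). Under normexp background correction the fitted change shrank to -0.59 (adjusted p = 0.067), below 2-fold, and under the methods' t-test it was -3.42 (adjusted p = 0.12). Over all alternatives the adjusted p ran from 0.00016 to 0.12.

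The other H19 probe, A_19_P00323082, which carries the same RefSeq transcript, did not pass the test. It measured -1.33, -1.48, -1.92 and -0.92 on mock arrays 1-1, 1-2, 2 and 3 and -2.0, -2.88 and -1.84 in TRIM58-WT, with replicate 2 not well above background. The groups overlapped, and the change was -0.83 (SE 0.37, adjusted p = 0.23). It was -1.44 within the arrays of low signal and -0.34 within the others. Where each of the probes lies on the transcript was not analysed.

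MEG3, described as a tumour suppressor that raises p53 activity, rose on probe A_33_P3255434. The signal was -2.35, -1.81, -2.30 and -1.62 on mock arrays 1-1, 1-2, 2 and 3 and 2.15, 0.41 and 0.32 in TRIM58-WT replicates 1, 2 and 3. All 7 arrays were above background and the groups did not overlap, with replicate 1 the highest by far. The change was 2.96 (SE 0.51, 95% confidence interval 1.72 to 4.20, adjusted p = 0.022), or 7.78-fold. The difference was 1.99 within the arrays of low signal and 4.34 within the others, and 4.47 on slide 1 and 2.08 on slide 2. The call depended on the replicates and on the processing, with an adjusted p of 0.060 when TRIM58-WT 2 and 3 were averaged, 0.10 without mock 1, 0.093 without mock 2, 0.058 without TRIM58-WT 2 and 0.058 without TRIM58-WT 3. It was also lost under normexp (change 1.39, adjusted p = 0.073), without a filter (0.054), with spike-in scaling (0.12) and with the methods' t-test (0.21).

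The 4 other MEG3 probes did not share this rise over all TRIM58-WT replicates. A_32_P40547, which is assigned to the same RefSeq transcript, measured 0.53, 0.27, 0.58 and 0.58 on the mock arrays and -0.09, -0.03 and 0.84 in TRIM58-WT. Its change of -0.28 (SE 0.28, 95% confidence interval -0.95 to 0.39, adjusted p = 0.59) was within the spread of the replicates, with -0.18 within the arrays of low signal and -0.58 within the others. The remaining 3 probes, of other MEG3 transcripts, stayed at background on every mock array. In TRIM58-WT replicate 1 they measured -2.77, -3.36 and -3.45, their highest values among the 11 arrays, and A_19_P00316398 was well above background there. The same 3 probes lay between -4.66 and -4.76 in TRIM58-WT replicates 2 and 3. Without the 3 arrays of low signal, the change of A_19_P00316398 was 2.52, with TRIM58-WT replicate 1 as the only array of its group.

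**Figure D2:**
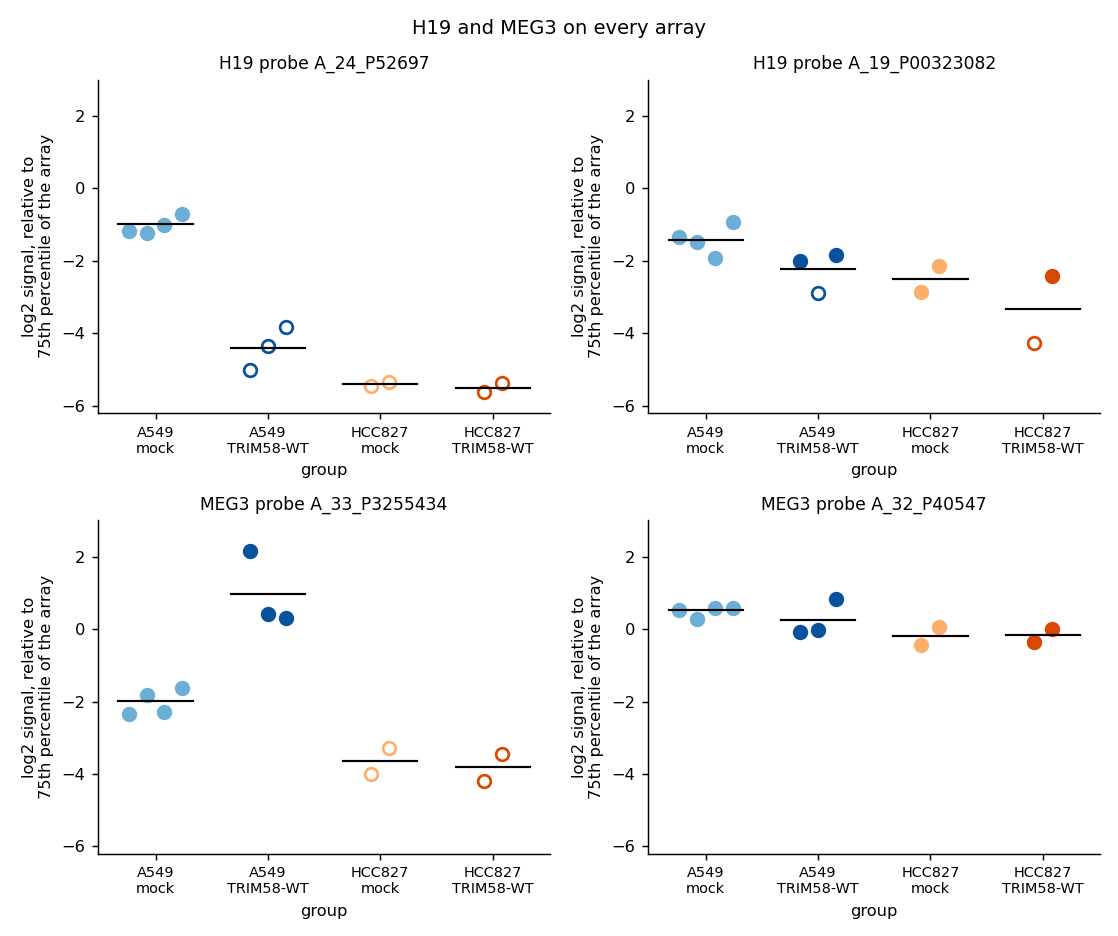
Each point is an array, as log2 signal relative to the 75th percentile, filled where the probe was well above background and open where it was not, and each line is the mean over replicates of the group. In A549, the H19 probe A_24_P52697 drops to background and the MEG3 probe A_33_P3255434 rises in TRIM58-WT, while the groups overlap on the second probe of each gene. In HCC827, both called probes are at background in mock and TRIM58-WT.

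MALAT1 and NEAT1, the nuclear body RNAs, divided the A549 arrays by array and not by vector. NEAT1 probe A_19_P00321332 measured 4.45, 4.39 and 4.38 on mock arrays 1-1, 1-2 and 2 and 4.68 in TRIM58-WT 1. It measured 0.94 in mock 3 and 0.27 and 0.63 in TRIM58-WT 2 and 3. The 3 low values are those of the arrays of low signal, although the value is already relative to the 75th percentile of its own array. The change between the groups was -1.39 (SE 1.44, 95% confidence interval -4.87 to 2.09, adjusted p = 0.61). It was -0.50 within the arrays of low signal and 0.28 within the others, where 1 TRIM58-WT array stood against 2 mock replicates.

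The other NEAT1 probes showed the same division. A_19_P00321333 measured 2.94 to 3.10 on the 4 A549 arrays of higher signal and -1.05 to 0.00 on the other 3. A_19_P00318409 measured -0.37 to 0.27 on the first and was not well above background on the last, at -3.98 to -4.63. For MALAT1, probe A_19_P00805006 measured 2.18, 2.19, 2.22 and 2.09 on mock 1-1, 1-2, 2 and TRIM58-WT 1, against -1.40, -1.84 and -1.60 on mock 3 and TRIM58-WT 2 and 3. The brightest MALAT1 probe, A_19_P00324839, measured 4.42, 4.24 and 4.67 on mock arrays 1-1, 1-2 and 2 and 3.91 in TRIM58-WT 1, against 2.06, 2.74 and 2.38. Its change of -0.68 (SE 0.75, adjusted p = 0.63) was 0.49 within the arrays of low signal and -0.58 within the others. All 5 MALAT1 probes and all 3 NEAT1 probes lay at least 2-fold lower in mock 3 than the mean of mock 1 and 2, with differences of -5.11 to -1.72 for MALAT1 and -4.49 to -2.97 for NEAT1. This was so for 8.95% of the 17338 probes above background on the other mock arrays.

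The gap to the other replicates was seen for PVT1 probes too, but not for all lncRNAs. In mock 3, 11 of the 21 lncRNA probes above background on the other mock arrays were at least 2-fold lower, and in TRIM58-WT 2 and 3 it was 14 of the 22 above background in TRIM58-WT 1, against 22.1% and 20.6% of 21198 probes. In mock array 1-2 against mock array 1-1 it was 0 of 22 and 0.679% of all. H19 and the brightest MEG3 probe were not among the probes that lay lower in mock 3. The MEG3 probe called in A549, A_33_P3255434, differed by 0.57 in mock 3, but by -1.74 and -1.83 in TRIM58-WT 2 and 3 against TRIM58-WT 1. With these gaps, the SD of NEAT1 probe A_19_P00321332 over the TRIM58-WT replicates, 2.45, was above that of 99.9% of tested probes. The confidence intervals of MALAT1 and NEAT1 in A549 spanned several log2 units. Spike-in level and 75th percentile moved with these values, and their part was not tested.

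**Figure D3:**
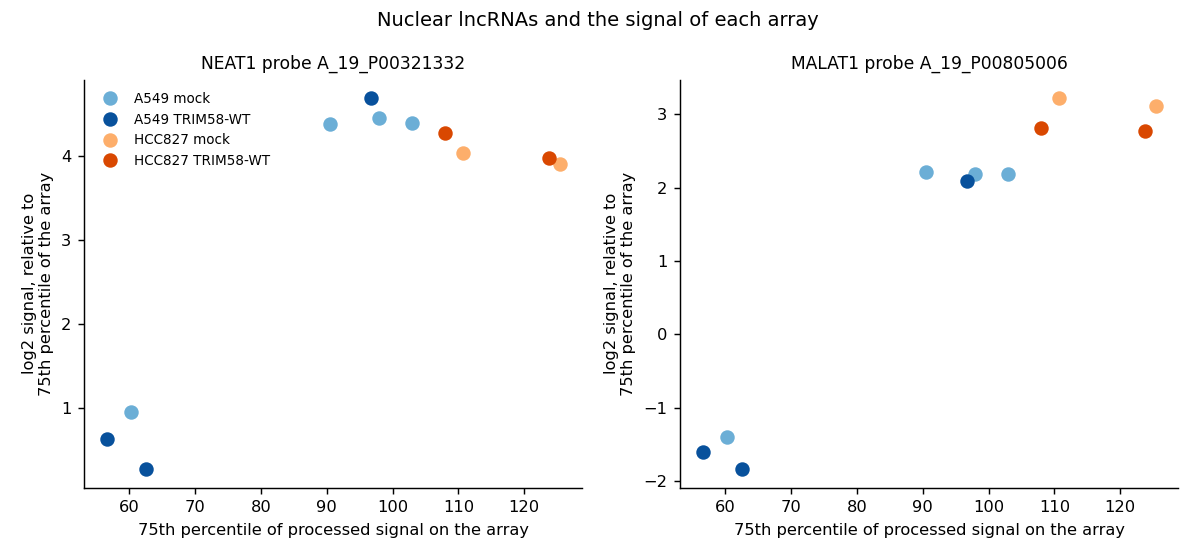
Signal of a NEAT1 probe (left) and a MALAT1 probe (right) on each array, as log2 relative to the 75th percentile, against the 75th percentile of processed signal on that array. The 3 A549 arrays with a percentile between 56.6 and 62.5, 1 mock and 2 TRIM58-WT, lie apart from the other 8, which lie between 3.90 and 4.68 for NEAT1.

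GAS5, which accumulates when growth stops and is degraded by nonsense-mediated decay in growing cells, was measured by 1 probe. Its signal was 6.68, 6.56, 6.66 and 5.67 on mock arrays 1-1, 1-2, 2 and 3 and 5.99, 5.24 and 5.28 in TRIM58-WT. Mock 3 lay below the highest TRIM58-WT array, and the groups overlapped. The change was -0.81 (SE 0.35, 95% confidence interval -1.64 to 0.03, adjusted p = 0.21). It was -0.41 within the arrays of low signal and -0.65 within the others. With the signal class as a block, chosen after seeing the data, it was -0.53 (adjusted p = 0.026). With slide as a block and 4 separate mock arrays it was -0.78 (adjusted p = 0.049). Each of these was below a 2-fold change. With single replicates left out, the adjusted p ran from 0.056 to 0.52.

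PVT1, which is co-amplified with MYC in many tumours, had no probe called in A549, and 3 of its 5 tested probes lay above 0. The probe with the smallest p was A_19_P00316753, at -0.54, -0.44, -0.73 and -0.35 on the mock arrays and 0.32, 0.12 and 0.08 in TRIM58-WT. Its groups did not overlap, with a change of 0.70 (SE 0.18, adjusted p = 0.061) that was 0.44 within the arrays of low signal and 0.94 within the others. For the brightest probe, A_19_P00317871, the difference was -0.44 (SE 0.26, adjusted p = 0.35), with -0.48 within the arrays of low signal and -0.12 within the others. 3 PVT1 probes were not well above background on the arrays of low signal and were therefore not tested. Without those arrays, the change of 1 of these probes, A_19_P00321075, was 1.09, again with 1 TRIM58-WT array.

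HOTAIR, which binds the Polycomb complex PRC2 and the LSD1 demethylase complex, was near background in A549. 4 of its 5 probes were at background on all A549 arrays. The brightest, A_19_P00329806, was above background on 3 of 4 mock arrays and 1 of 3 TRIM58-WT arrays, with signals of -1.39, -2.20, -2.89 and -1.55 and of -2.13, -2.66 and -2.56. No HOTAIR probe could be tested for a change in A549.

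**Figure D4:**
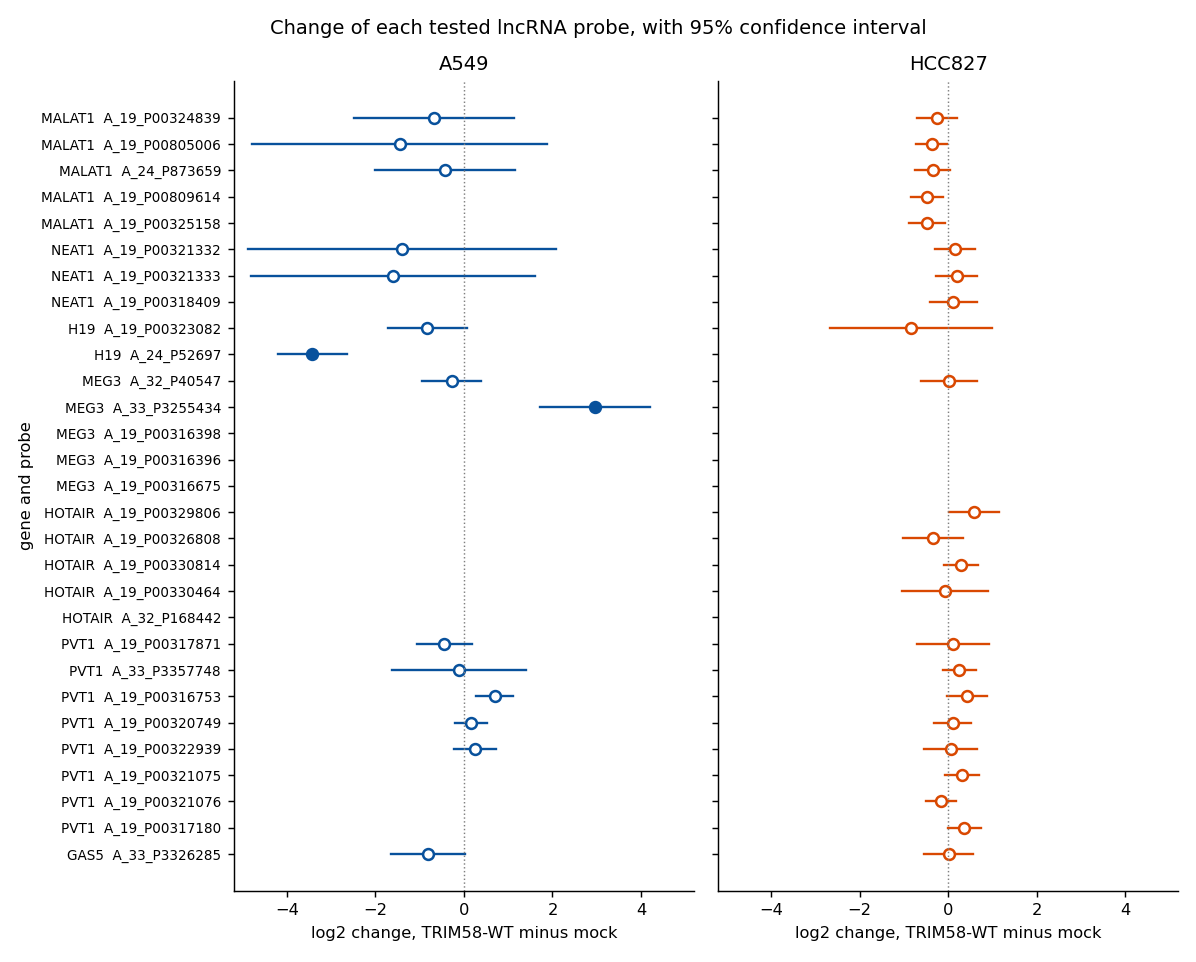
Change of each tested probe, TRIM58-WT minus mock on the log2 scale, in A549 (left, 3 replicates a group) and HCC827 (right, 2 replicates a group), with the limma 95% confidence interval as a line and called probes filled. Rows with no point were not tested. The intervals of MALAT1 and NEAT1 are much wider in A549 than in HCC827.

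In HCC827, 23 of the 29 probes were tested with limma and 0 were called, and 0.885% of all 19542 tested probes were called. The unadjusted p was under 0.05 for 4 of the 23 by limma, against 20.3% of all tested probes, and for 1 of the 23 by the methods' t-test, which called 0 after adjustment. MALAT1 probe A_19_P00809614 measured 2.85 and 2.71 in mock against 2.28 and 2.33 in TRIM58-WT, and A_19_P00805006 measured 3.22 and 3.11 in mock against 2.81 and 2.78 in TRIM58-WT. All 5 MALAT1 probes lay lower in TRIM58-WT without overlap, by 0.26 to 0.47 on the log2 scale (adjusted p = 0.18 to 0.42). Groups of 2 without overlap were found for 56.7% of all tested probes and for 12 of the 23 lncRNA probes. The 5 probes share 1 transcript and the same arrays, and are not 5 independent measurements.

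The 3 NEAT1 probes lay 0.12 to 0.19 above mock, and the interval of the brightest was -0.30 to 0.60. GAS5 measured 7.83 and 8.31 in mock against 8.03 and 8.13 in TRIM58-WT, a change of 0.01 with an interval of -0.54 to 0.56. The brightest HOTAIR probe measured -1.39 and -1.88 in mock against -1.06 and -1.04 in TRIM58-WT, a change of 0.58 (SE 0.21, 95% confidence interval 0.02 to 1.14, adjusted p = 0.23), and the 4 tested HOTAIR probes split, 2 above and 2 below 0. Of the 8 PVT1 probes, 7 lay above 0, between 0.05 and 0.43, and the interval of the brightest was -0.70 to 0.93. H19 probe A_24_P52697 and MEG3 probe A_33_P3255434, the probes called in A549, stayed at background on all HCC827 arrays and were not tested. H19 probe A_19_P00323082 measured -2.87 and -2.14 in mock against -4.27 and -2.41 in TRIM58-WT, with the lowest not above background, a change of -0.84 with a wide interval of -2.67 to 1.0.

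The test of the difference between the lines called 1 of 25 lncRNA probes, and 3.85% of all 20618. This was H19 probe A_24_P52697, with an HCC827 change minus A549 change of 3.32 (SE 0.46, adjusted p = 0.0080). All 4 HCC827 arrays lay at background, between -5.33 and -5.63, where no fall can be measured. MEG3 probe A_33_P3255434 had a difference of -3.12 (SE 0.79, adjusted p = 0.071). For NEAT1 probe A_19_P00321332 the difference was 1.54 with a 95% confidence interval of -3.07 to 6.15, so a difference of several-fold between the lines was not excluded by these arrays.

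The mock arrays of both lines were then compared, to show the levels of the lncRNAs in cells with the empty vector. 6 of 25 tested probes were called, 2 higher and 4 lower in A549, and of all 19482 tested probes 30.1% were called, 14.0% higher and 16.1% lower. This balance moved with the scaling too. After spike-in scaling, 1066 of 6686 calls over all probes were higher in A549, and of the lncRNA probes 1 was higher and 5 lower. A549 mock and HCC827 mock differ in line and in how transfectants were isolated, and these cannot be told apart. H19 probe A_24_P52697 was at least 4.79-fold higher in A549 mock (fitted difference 4.42, SE 0.32, adjusted p = 1.4e-05). The other H19 probe, A_19_P00323082, was well above background on 2 of 2 HCC827 mock arrays. It was not called (difference 1.09, SE 0.57, limma adjusted p = 0.16). MEG3 probe A_33_P3255434 was at least 2.35-fold higher in A549 mock (fitted difference 1.66, SE 0.55, adjusted p = 0.041), and this call was lost without any single mock replicate of either line (adjusted p = 0.059 to 0.23).

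GAS5 was 3.38-fold lower in A549 mock than in HCC827 mock (-1.76, SE 0.36, adjusted p = 0.0044), and no mock array of A549 reached the lowest of HCC827. PVT1 probe A_19_P00317871 was 3.26-fold lower in A549 mock, with 0.44, 0.53, 1.00 and 0.50 in A549 and 2.32 and 2.41 in HCC827 (adjusted p = 0.0024). The other 7 PVT1 probes were not called, with differences between -0.71 and 0.31. HOTAIR probe A_19_P00330464 measured -2.56 and -1.76 in HCC827 mock and was not well above background on the A549 arrays, so that it was at least 1.66-fold lower in A549 (fitted difference -2.61, adjusted p = 0.00032). HOTAIR probe A_19_P00330814 was at least 1.26-fold lower (fitted difference -1.98, adjusted p = 0.033), a call lost without mock replicate 1 or 2 of either line (adjusted p = 0.088 to 0.13). The HOTAIR probe A_32_P168442 stayed at background on all 11 arrays.

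Levels of the brightest probe of each gene over the 4 groups are a description of order within that probe. For GAS5 the group means were 8.08 in HCC827 TRIM58-WT, 8.07 in HCC827 mock, 6.31 in A549 mock and 5.51 in A549 TRIM58-WT, and within each line the means differed by less than the test could call. For PVT1 they were 2.48 and 2.36 in HCC827 TRIM58-WT and mock and 0.66 and 0.22 in A549 mock and TRIM58-WT. For MEG3 they ran from 0.52 in A549 mock to -0.19 in HCC827 mock, and for HOTAIR from -1.05 in HCC827 TRIM58-WT to -2.45 in A549 TRIM58-WT.

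Genes with a pattern most like each lncRNA were sought by Pearson's r over the 10 replicates, after centring within each line, among 9530 genes above background on all arrays. The replicates share lines, slides and signal levels, so r is a description. NEAT1 was most like JMJD7-PLA2G4B, LETMD1 and NAPB, with r of 0.99 for each. Among the genes most like MALAT1 were LUC7L3 (r = 0.99) and ANKRD49 (0.97). GAS5 was closest to ACYP2 (0.98), MTX2 (0.97) and TASP1 (0.97), and PVT1 to THAP6 (0.96), RCCD1 (0.94) and SMIM2-AS1 (0.94). The nearest genes were less alike for MEG3 (ANKRD13B, 0.90), H19 (CLU, 0.88) and HOTAIR (TEAD3, 0.86).

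Partners and neighbours of the lncRNAs were counted with 1 probe per gene, the brightest, over all A549 arrays, those of low signal included. None of 13 paraspeckle proteins and none of 12 tested speckle and splicing factors was called in A549, and none of 13 in either list in HCC827. Their median changes in A549, 0.08 and -0.10, lay beside 0.06 for all probes. None of 13 PRC2 and LSD1-CoREST subunits was called in either line, and none of 10 nonsense-mediated decay factors. Of 16 tested snoRNA host genes besides GAS5, 1 was called in A549, SNHG6, which fell by 1.11 on the log2 scale (adjusted p = 0.025), a share near the 6.92% of all tested probes. The median of the 16 was -0.44 in A549 and 0.01 in HCC827, with 0.06 and 0.01 over all probes.

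Among imprinted and IGF-axis genes, 1 of 8 tested was called in A549 and 1 of 9 in HCC827, where 6.92% and 0.885% of all tested probes were called. GRB10, an adaptor that restrains insulin and IGF receptor signalling, fell by 1.08 on the log2 scale in A549 (adjusted p = 0.027). PEG10, a paternally expressed gene derived from a retrotransposon, fell by 2.19 on the log2 scale in HCC827 (adjusted p = 0.038). Of 17 tested neighbours of the lncRNA genes, 3 were called in A549, 2 higher and 1 lower, against 3.49% and 3.43% of all tested probes. LTBP3, which lies near NEAT1 and MALAT1 and encodes a binding protein of latent TGF-beta, rose by 1.5 on the log2 scale. HOXC6 rose by 1.05 and HOXC13 fell by 2.13 on the log2 scale, both from the cluster that holds HOTAIR. None of 20 tested neighbours was called in HCC827.

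Other lists gave few calls. Of 8 tested genes of the glucocorticoid receptor list, whose receptor GAS5 can bind, SGK1 and BIRC3 fell in A549, by 2.09 and 2.22 on the log2 scale, where 3.43% of all tested probes fell, and 0 were called in HCC827. HOXD1, from the HOXD cluster that HOTAIR is known to repress in trans, was the only 1 of 9 HOXD genes tested in HCC827. It was well above background in both HCC827 mock replicates and in neither TRIM58-WT replicate, so it entered the test through mock alone. HOXD1 was called lower by limma (adjusted p = 0.029), where 0.885% of all tested probes were called, and it was at background in A549. A link to HOTAIR was not tested. Of 10 further lncRNAs tested in HCC827, CRNDE alone was called and fell by 1.55 on the log2 scale (adjusted p = 0.048). In A549 0 of 8 were called. Over all tested probes, 0.885% were called in HCC827 and 6.92% in A549.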

How the data were processed

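RNA of 11 transfectant samples was labelled and hybridised to Agilent human arrays in 1 colour. The authors deposited spot intensity values from Agilent Feature Extraction (11.5.1.1 per the file headers, 10.7 per the labels), with background subtracted and spatial trends removed but no scaling between arrays. They also deposited a log2 table, in which 95.5% of values lay within 0.01 of log2 intensity minus the 75th percentile of the array after a baseline per probe, and which served as an alternative.

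Outlier spots were left out, spots of a probe averaged, and the 75th percentile over 42405 probes subtracted from log2 values. 27241 probes were named through a RefSeq table (GRCh38.p14). Probe positions are not given, since the array design used an earlier assembly. limma 3.58.1 in R 4.3.3 tested each line separately, and the difference between lines (called at adjusted p under 0.05 alone) and between mock groups in a fit of 4 groups. All probes of the 8 genes were described, with called members of gene lists and up to 3 genes nearest to each in pattern. One of these genes is not reported here. Members and lists were chosen with earlier results of these data known. Alternatives covered scaling (median, quantile, spike-in), normexp background correction with an offset of 50, filters, outlier spots, the authors' table, the methods' t-test (Welch's test), blocks, the use of replicated arrays and each replicate left out. The 7 spike-in probes, the low-signal limit of 70 and the averaging of TRIM58-WT 2 and 3 were chosen after seeing the data. On simulated data with 200 of 16921 probes changed by 2 (log2), the A549 design called 72.5% of them. With 200 of 19542 changed, the HCC827 design called 56.5%. The simulated noise was drawn separately for each probe and array, with the largest spreads capped. It did not hold the shared division of the A549 arrays, so these shares do not describe probes such as those of MALAT1 and NEAT1. The number of arrays limits the precision.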

Additional observations from a re-analysis of the deposited data

Results flagged for a closer look

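The change of H19 probe A_24_P52697 differed between the lines in the limma test of the difference itself, by 3.32 on the log2 scale (HCC827 change minus A549 change). The probe was well above background on all 4 A549 mock arrays, on 0 of 3 A549 TRIM58-WT arrays and on none of the 4 HCC827 arrays. The difference therefore sets a fall to background in A549, known only as a bound, against a signal at background in HCC827. No group held 4 or more replicates, so single replicates were not tested against their group.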

How the results depend on the processing

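In A549, 2 of 15 tested lncRNA probes were called, and 1171 of 16921 over all probes. The count was 0 under normexp (507 over all probes) and 0 with the methods' t-test (24 over all). It was 0 when only the brightest probe of each gene was counted. It was 1 without a filter (609 of 42402 over all), 1 with spike-in scaling (343 over all) and 1 with TRIM58-WT 2 and 3 as 1 replicate (333 over all). With probes above background on every array it was 1 (673 of 14944 over all). That call was the MEG3 probe, as the H19 probe was not tested there. The fit without the 3 arrays of low signal left 1 TRIM58-WT array, and no count is given for it. Leaving out single replicates gave a count of 1 to 2. In HCC827 the count stayed at 0 under every alternative that kept both replicates of each group. Without a filter, with the replicate block and with the methods' t-test, 0 probes were called over all probes. These runs could therefore show nothing about the lncRNAs. For the difference between the lines, 1 lncRNA probe was called, and 794 of 20618 over all probes. This count became 0 under normexp (733 over all), 0 with probes above background on every array (394 of 13889 over all) and 0 by the brightest probe. It became 2 with a median shift (526 over all) and 2 with 4 separate mock arrays (1352 over all). With slide as a block it was 2 (1681 over all), and with signal class as a block 2 (2282 over all). It was 1 to 2 with single A549 replicates left out. Between the mock groups, 6 became 3 under normexp, 2 with probes above background on every array and 2 by the brightest probe, and 4 to 5 with single replicates left out. The cause of these shifts was not tested. By design, normexp with an offset draws dim probes together, and filters change which probes are tested. No called value turned its sign. With the replicate number as a block the counts were 2 in A549 and 0 in HCC827. The numbers share no stated source. In A549, same-numbered replicates deviated with r of 0.50, -0.42 and 0.50, and pairs with different numbers with r from -0.59 to 0.57. In HCC827 r was 0.08, which is a single value, since 2 replicates deviate from their mean by equal and opposite amounts. Over all probes, the A549 count of 1171 moved to 24 with the methods' t-test and 333 with TRIM58-WT 2 and 3 as 1 replicate. The HCC827 count of 173 moved to 0 with the block. A median shift moved the median change of all A549 probes from 0.06 to -0.31. Dim probes, such as most of HOTAIR in A549 and most of MEG3, lay at background, which limits what can be measured for them.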
